A study of Mus musculus with 22 samples.

Results

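Genes of the choroid plexus, 10 in number, were followed in whole brains of mice labelled knockout for Agtr2, the gene of the type 2 angiotensin II receptor, and in control mice, at postnatal day 1 (P1) and embryonic day 15 (E15). They were Ttr, Folr1, Kl, Clic6, Kcne2, Otx2, Aqp1, Enpp2, Sostdc1 and Prlr, chosen as genes of this tissue and found on the arrays by the gene name that the scanner files give each probe. They were read by 13 of the 41174 probes, and they were 10 of the 21001 gene symbols measured. All 10 passed the filter on dim signals at both ages. The samples were 4 knockout and 4 control brains at P1, and 8 knockout and 6 control brains at E15. The RNA was extracted from slices of frozen brain, and each of the 22 two-colour arrays carried 1 knockout and 1 control animal, 1 in Cy3 and 1 in Cy5. The P1 controls carry no numbers in the labels and are named here by the knockout they were hybridized with. The labels do not say whether both arrays of a P1 knockout carried the same control, which is assumed throughout. Strain, sex and the knockout allele are not given in the sources used here.

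The choroid plexus is a sheet of epithelium over a vascular core that hangs into the ventricles of the brain and secretes cerebrospinal fluid. Its epithelial cells carry hormones and vitamins between blood and fluid, move ions and water, and release proteins that act on the brain. The epithelium arises from the dorsal midline of the neural tube, and in the embryonic mouse brain it is already formed when the cortex is still being built. A whole brain holds little choroid plexus. In these bulk samples fewer choroid plexus cells and less RNA per cell cannot be told apart.

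From 71.3% to 89.5% of the spots were well above background on a P1 array, and from 74.9% to 89.3% on an E15 array. Agtr2, read by 1 probe, did not pass the threshold between the brains labelled knockout and the controls, with a log2 knockout over control of 0.11 (SE 0.08, n = 4, limma adjusted p = 0.722) at P1 and of -0.39 (SE 0.31, n = 8, adjusted p = 0.823) at E15. The ratio lay below 0 in 1 of 4 replicates at P1 and in 6 of 8 at E15. Its normalized intensity was 66.4 to 83.7 in P1 knockouts against 68.3 to 75.5 in P1 controls, and 74.2 to 134 in E15 knockouts against 70.4 to 555 in E15 controls. Where this probe lies relative to the altered part of the gene is not given in the sources used here, so the groups below go by their labels alone. All P1 arrays were scanned on 1 day and the E15 arrays on 3 other days, with different versions of the scanner software, so age and array batch cannot be told apart.

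The choroid plexus expresses a small set of genes at levels far above the rest of the brain. Ttr encodes transthyretin, which carries thyroid hormone and, with its partner, retinol. Folr1 encodes a folate receptor that moves folate into the fluid. Enpp2 encodes autotaxin, the secreted enzyme that makes lysophosphatidic acid, Kl encodes klotho, the co-receptor for the hormone FGF23 that is also shed as a soluble protein, and Sostdc1 encodes a secreted antagonist of BMP and Wnt signals. Kcne2 is a subunit of potassium channels, Clic6 is a member of the chloride intracellular channel family, and Aqp1 is the water channel of the apical membrane. Prlr is the prolactin receptor. Otx2 is the homeodomain factor that choroid plexus development requires.

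The promoter windows of 4 genes are shown because these genes differed in how they behaved between ages and between animals: Kcne2 moved with Ttr over the animals, Aqp1 did not do so at E15, Kl was higher at P1 and Otx2 was lower. Of the 10 genes, 5 had windows in the RefSeq promoter table of GRCm38.p6 (Kl, Aqp1, Otx2, Prlr and Kcne2, with 11 windows), each of 300 bases in the direction of transcription. Letters in capitals mark the GC box GGGCGG or the homeodomain motif TAATCC, the letters OTX2 is known to bind, on either strand. No 2 matches overlapped.
Kcne2, chr16:92292139-92292438, plus strand: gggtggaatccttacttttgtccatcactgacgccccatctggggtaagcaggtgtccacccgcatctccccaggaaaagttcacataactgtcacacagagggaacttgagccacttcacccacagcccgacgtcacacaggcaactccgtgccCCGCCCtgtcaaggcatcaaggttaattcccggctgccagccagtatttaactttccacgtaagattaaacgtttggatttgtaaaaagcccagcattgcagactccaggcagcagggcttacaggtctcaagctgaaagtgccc
Aqp1, chr6:55336049-55336348, plus strand: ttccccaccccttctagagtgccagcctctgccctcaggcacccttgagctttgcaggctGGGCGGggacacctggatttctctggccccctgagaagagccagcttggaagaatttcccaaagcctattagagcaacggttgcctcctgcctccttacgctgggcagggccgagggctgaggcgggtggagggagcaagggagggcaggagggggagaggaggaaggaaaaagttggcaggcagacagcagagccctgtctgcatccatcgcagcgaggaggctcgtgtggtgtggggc
Kl, chr5:150952357-150952656, plus strand: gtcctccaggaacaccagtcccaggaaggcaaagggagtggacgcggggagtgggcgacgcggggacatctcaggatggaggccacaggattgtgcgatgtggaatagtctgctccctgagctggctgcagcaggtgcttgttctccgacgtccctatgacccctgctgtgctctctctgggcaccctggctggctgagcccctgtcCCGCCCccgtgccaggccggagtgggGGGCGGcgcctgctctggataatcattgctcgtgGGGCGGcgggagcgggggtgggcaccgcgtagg
Otx2, chr14:48665060-48665359, minus strand: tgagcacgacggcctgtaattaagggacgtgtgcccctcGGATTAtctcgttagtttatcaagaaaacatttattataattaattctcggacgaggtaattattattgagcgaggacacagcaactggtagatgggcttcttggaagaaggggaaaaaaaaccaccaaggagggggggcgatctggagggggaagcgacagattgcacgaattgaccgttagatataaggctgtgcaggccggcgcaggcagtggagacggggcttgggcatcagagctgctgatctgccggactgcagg
The Kl window held 3 GC boxes, the Aqp1 window held 1, and 1 of the 2 windows of Kcne2 held 1, and 35.7% of all 32851 promoter windows held at least 1. TAATCC was found in 1 of the 4 windows of Otx2 and in 7.06% of all windows. The forkhead motif GTAAACA was found in 1 of the 3 windows of Prlr and in 3.65% of all windows. These matches are descriptions of the letters in these windows.

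Levels were set between the ages on normalized intensities, which are the background-corrected intensities of both channels brought to 1 scale over all arrays and averaged per animal. In knockout brains 1 of the 10 genes, Kl, was higher at P1 and 1, Otx2, was lower. In control brains Kl was higher and both Clic6 and Otx2 were lower, which is 1 higher and 2 lower. Over all 25484 features tested, 14.1% were higher and 10.4% lower at P1 in knockout brains, and 17% were higher and 16.3% lower in control brains, so changes were about as frequent among the 10 genes as among all features. The median log2 fold change of the 10 genes was -0.13 in knockouts and -0.50 in controls, with 3 above and 7 below 0 in each. The medians over all features were -0.02 in knockouts and -0.03 in controls.

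**Figure D1:**
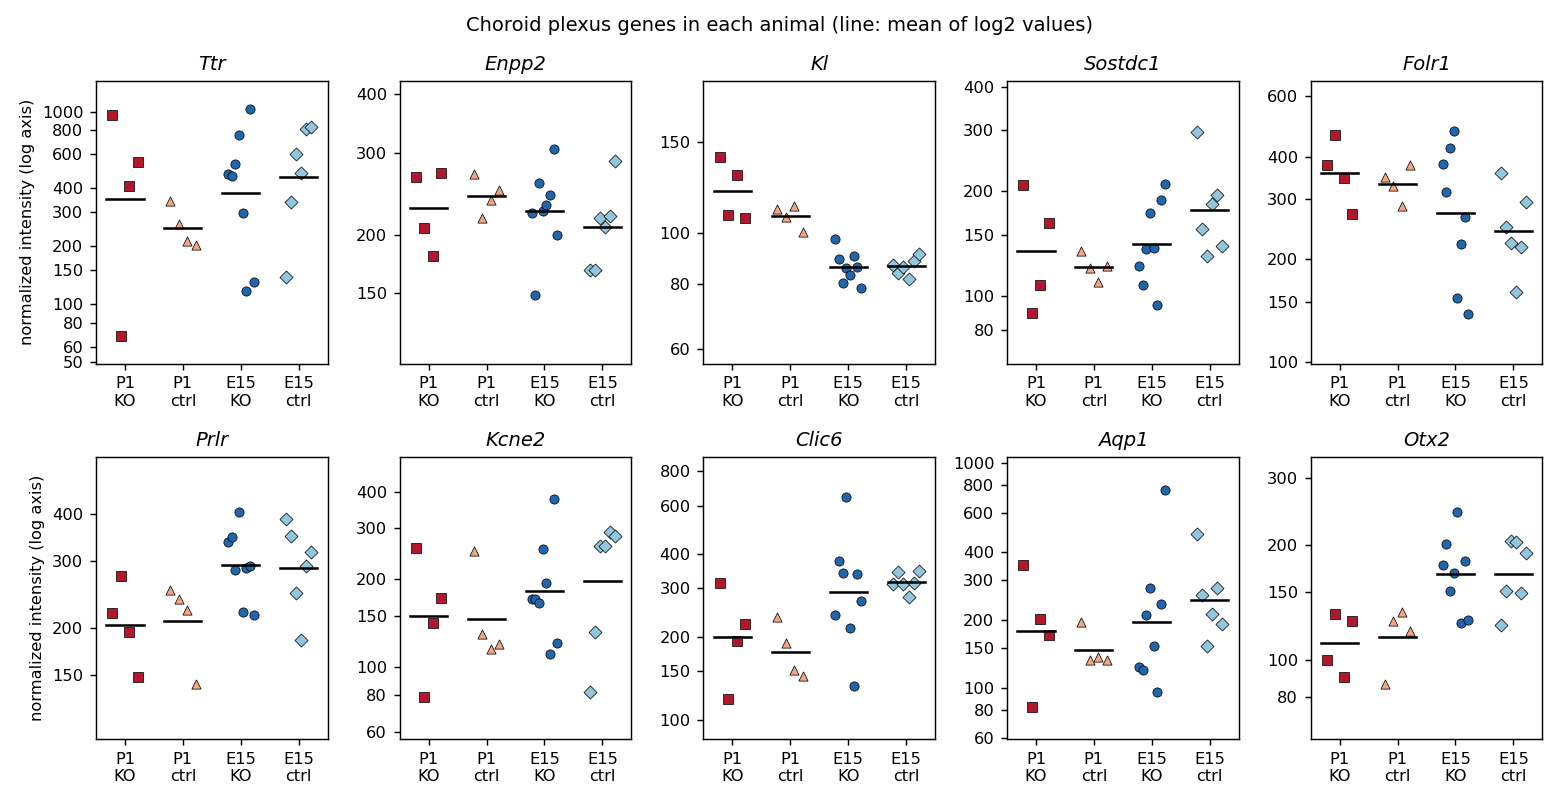
Normalized intensity of each of the 10 genes in each animal, on log axes, for P1 knockout (4 animals), P1 control (4), E15 knockout (8) and E15 control (6) brains; points run from animal 1 up and lines are means of the log2 values. Kl separates the ages in both genotypes, Clic6 separates them in the controls, and Ttr spans the widest range, from 68.6 to 1032.

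Ttr, the carrier of thyroid hormone, varied between animals more than it differed between ages. In knockout brains its normalized intensity was 966, 68.6, 412 and 551 at P1, against a lowest of 118, a median of 469 and a highest of 1032 at E15. The P1 knockouts held both an animal below and an animal near the top of the E15 range, and the log2 fold change was -0.11 (SE 0.72, adjusted p = 0.928). It was 0.67 without P1 knockout 2 and -0.60 without P1 knockout 1. Ttr was 342, 260, 214 and 203 in the 4 P1 control brains, against a lowest of 139, a median of 541 and a highest of 829 in the 6 E15 control brains. The P1 control values lay inside the E15 range: E15 control 1 was lower than all P1 controls and E15 controls 3 to 6 were higher. The log2 fold change, P1 over E15, was -0.88 (SE 0.45, limma adjusted p = 0.157). Without E15 control 1 it was -1.22 and passed the threshold (adjusted p = 0.00633). Ttr was well above background in 43 of 44 channels.

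Kl, klotho, was the dimmest and the most even of the 10 genes and the one whose ages separated in both genotypes. In knockout brains it was 140, 108, 129 and 107 at P1, against a lowest of 78.5, a median of 85.9 and a highest of 97.4 at E15. In control brains it was 111, 108, 113 and 101 at P1, against a lowest of 81.8, a median of 86.4 and a highest of 91.4 at E15. No P1 animal overlapped an E15 animal of its genotype. How many of all features separate the ages in this way was not counted, so no weight is placed on the lack of overlap. The log2 fold change, P1 over E15, was 0.48 (SE 0.09, adjusted p = 0.00168) in knockouts and 0.32 (SE 0.06, adjusted p = 0.00222) in controls. The probe that stands for Kl is described in the files as one for the secreted isoform. A second probe, for the full-length transcript, was dim: it was well above background in 13 of 44 channels and gave 0.11 (adjusted p = 0.158) in knockouts and 0.08 (adjusted p = 0.322) in controls. On the scanner software's own processed signals, to which no offset was added, the Kl change was 1.06 in knockouts and 0.81 in controls, and both passed the threshold.

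Clic6, the chloride channel family member, was lower at P1 in control brains with no overlap, which was likewise not counted over all features. In knockout brains it was 313, 119, 193 and 222 at P1, against a lowest of 132, a median of 305 and a highest of 646 at E15. These overlapped, and the log2 fold change was -0.55 (SE 0.36, adjusted p = 0.291). In control brains Clic6 was 235, 191, 151 and 144 at P1, against a lowest of 280, a median of 313 and a highest of 348 at E15. The log2 fold change was -0.84 (SE 0.13, adjusted p = 0.000818), and it stayed past the threshold when any 1 control was left out. The difference between the 2 genotypes in this age change was itself not past the threshold (0.32, SE 0.34, adjusted p = 0.927). The dimmer of the 2 Clic6 probes gave -0.18 (adjusted p = 0.166) in controls.

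Otx2, the homeodomain factor, was lower at P1 in both genotypes, with overlapping values. It was 99.6, 132, 90.2 and 126 in P1 knockouts, against a lowest of 124, a median of 173 and a highest of 243 in E15 knockouts. It was 86.5, 126, 133 and 119 in P1 controls, against a lowest of 123, a median of 171 and a highest of 204 in E15 controls. The lowest E15 animals reached into the P1 range in each genotype. The log2 fold change was -0.60 (SE 0.17, adjusted p = 0.025) in knockouts and -0.55 (SE 0.17, adjusted p = 0.0295) in controls. The control call ended when E15 control 3, 4 or 6 or P1 control 1 or 4 was left out (lowest size -0.41 without P1 control 1), and the knockout call ended without P1 knockout 1 or 3. The control call also ended when channels were scaled by their 75th percentile (-0.50, adjusted p = 0.0532). On the scanner's processed signals the change was -1.15 in knockouts and -0.98 in controls.

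Kcne2 and Aqp1, which serve potassium and water movement, did not pass the threshold at the main settings. Kcne2 was 256, 78.9, 142 and 173 in P1 knockouts, against a lowest of 110, a median of 171 and a highest of 377 in E15 knockouts (log2 fold change -0.29, SE 0.34, adjusted p = 0.572). It was 251, 130, 115 and 120 in P1 controls, against a lowest of 82.2, a median of 260 and a highest of 291 in E15 controls, with a log2 fold change of -0.44 (SE 0.38, adjusted p = 0.401). P1 control 1 stood apart from the other 3, and E15 control 1 was again the lowest. Aqp1 was 350, 82.5, 203 and 172 in P1 knockouts, against a lowest of 95.5, a median of 182 and a highest of 761 in E15 knockouts (log2 fold change -0.14, SE 0.51, adjusted p = 0.863). It was 196, 133, 137 and 133 in P1 controls, against a lowest of 153, a median of 236 and a highest of 483 in E15 controls. The control log2 fold change was -0.73 (SE 0.27, adjusted p = 0.06), and it passed the threshold under 8 of 18 alternatives. Among these were the processed signals (-1.08, adjusted p = 0.0187) and leaving out E15 control 1, the highest animal (-0.54, adjusted p = 0.0454). In counts of alternatives by age, here and below, the fits without E15 control 1 and without E15 knockout 8 each enter again. They do so as the fit without the animals highest in meninges genes.

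The secreted and receptor genes also did not pass the threshold in either genotype at the main settings. Enpp2 ranged from 181 to 271 in P1 knockouts and from 149 to 305 in E15 knockouts, and from 217 to 270 in P1 controls and from 168 to 289 in E15 controls. Its log2 fold change was 0.02 in knockouts and 0.22 in controls (adjusted p = 0.949 and 0.261). Sostdc1 ranged from 89.4 to 209 in P1 knockouts and from 94.3 to 209 in E15 knockouts, and from 109 to 135 in P1 controls and from 131 to 296 in E15 controls. Its log2 fold change was -0.07 in knockouts and -0.54 in controls (adjusted p = 0.863 and 0.0599). The Sostdc1 groups all overlapped. In controls Sostdc1 passed the threshold under 7 of 18 alternatives, with an adjusted p of 0.0227 on the processed signals. Prlr ranged from 148 to 274 in P1 knockouts and from 217 to 404 in E15 knockouts, and from 142 to 251 in P1 controls and from 186 to 388 in E15 controls. Its log2 fold change was -0.52 in knockouts and -0.47 in controls (adjusted p = 0.0599 and 0.126). Prlr passed the threshold under 6 of 22 alternatives in knockouts, with a lowest adjusted p of 0.0171 when outlier spots were kept, and under 2 of 18 in controls. A further pair of probes under an expressed sequence name that RefSeq lists as a synonym of Prlr are described in the files as another sequence. They entered the Prlr value only in the alternative that averaged all probes of a gene, where it was -0.084 in knockouts and -0.13 in controls. Folr1 ranged from 271 to 464 in P1 knockouts and from 139 to 475 in E15 knockouts, and from 287 to 377 in P1 controls and from 161 to 358 in E15 controls. The 464, in P1 knockout 2, rests on 1 array, as an outlier spot was dropped on the other. The log2 fold change in controls was 0.46 (adjusted p = 0.088) by its brighter probe and -0.41 (adjusted p = 0.0531) by its other probe, so that the direction of Folr1 with age depended on the probe.

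**Figure D2:**
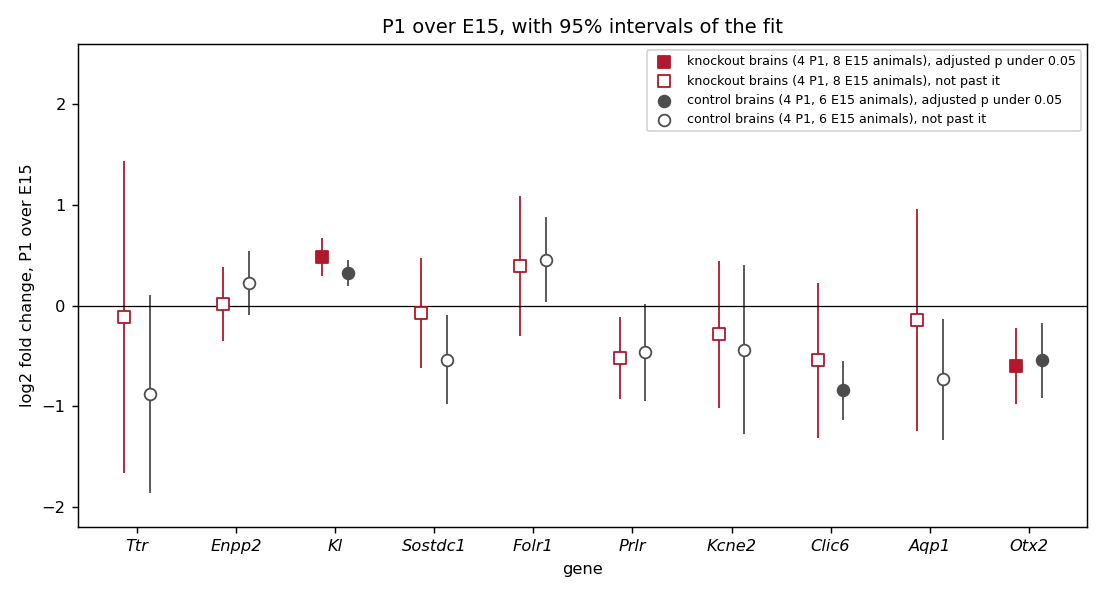
Log2 fold change of each gene, P1 over E15, in knockout brains (squares) and control brains (circles), with 95% intervals of the limma fit; filled symbols have an adjusted p under 0.05. Kl lies above 0 and Otx2 below 0 in both genotypes, Clic6 is past the threshold in controls, and the Ttr interval in knockouts runs from -1.66 to 1.44.

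The markers of meninges and fibroblasts, which can stay on a dissected brain, were also set between the ages. Of 20 genes of that list, 0 were higher and 2 lower at P1 in knockout brains, with a median log2 fold change of -0.48, and 0 higher and 8 lower in control brains, with a median of -0.58. Over all features 10.4% were lower in knockouts and 16.3% in controls, so only the control count lay above the share of all features. The medians over all features were -0.02 and -0.03. Pdgfrb, a receptor of perivascular and fibroblast cells, was -1.09 (adjusted p = 0.00172) and Foxc1, a factor of the meninges, was -1.09 (adjusted p = 0.00555) in controls. The mean log2 level of the list ran from 7.28 to 7.63 in P1 knockouts and from 7.70 to 9.55 in E15 knockouts, and from 7.35 to 7.62 in P1 controls and from 7.64 to 9.24 in E15 controls. The highest were E15 knockout 8 (9.55) and E15 control 1 (9.24), and E15 control 1 also had the highest Agtr2 intensity, 555. Without these 2 animals, a choice made after seeing the data, 3 of the 10 choroid plexus genes passed the threshold in knockouts (Kl higher, Otx2 and Prlr lower) and 7 in controls (Kl and Folr1 higher, Ttr, Clic6, Otx2, Aqp1 and Sostdc1 lower). Over all features 27.3% then passed in knockouts and 34.6% in controls. Each genotype lost only its own animal by this choice, so these are the fits with that animal alone left out. The part of the meninges genes in the age differences was otherwise not tested.

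Other genes of the choroid plexus went in both directions. Of 50 tested, 5 were higher and 4 lower at P1 in knockout brains (median log2 fold change -0.0061) and 7 were higher and 7 lower in control brains (median -0.049). F5, coagulation factor V, was 1.65 (adjusted p = 7e-08) in knockouts and 1.51 (adjusted p = 2.59e-05) in controls. F5 did not pass the filter on dim signals at E15, so it entered these tests only through P1, the age where it was higher. Slc13a4, a sulfate transporter, was 1.29 (adjusted p = 0.000168) in controls, and Slco1c1, a thyroid hormone transporter, was 0.68 (adjusted p = 0.000816). Vat1l was 0.99 in controls (adjusted p = 5.36e-05). Of 20 genes of ion and water transport, which include Clic6, 5 were higher and 4 lower in controls. Slc4a10, a sodium bicarbonate transporter, was 1.05 (adjusted p = 4.77e-05), Atp1b1, a subunit of the sodium pump, was 2.01 (adjusted p = 0.000168), and Slc12a4, a potassium chloride cotransporter, was 0.82 (adjusted p = 0.000377). Atp1b1 and Slc4a10 are also expressed by neurons.

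The lists give log2 fold changes, P1 over E15, for genes that work with the 10, and the counts are those in control brains. A gene could enter these age tests by passing the filter on dim signals at 1 age only. Over all features tested in control brains, 17% were higher and 16.3% lower at P1. Around Ttr, 1 of 11 genes of thyroid hormone handling was higher (Slco1c1) and 1 lower (Dio3, the enzyme that inactivates thyroid hormone, -0.75, adjusted p = 0.0348), and 0 of 13 genes of retinol handling were higher and 2 lower. Aldh1a2, which makes retinoic acid, was -0.47 (adjusted p = 0.00787). Around Folr1, 2 of 16 folate genes were higher and 7 lower. Aldh1l1, a folate enzyme of astrocytes, was 0.98 (adjusted p = 0.00222). Around Kl, 3 of 10 genes of klotho and FGF receptor signalling, Kl included, were higher and 1 lower. Fgfr3, an FGF receptor, was 2.39 (adjusted p = 5.34e-07), Fgfr2, another FGF receptor, was -0.48 (adjusted p = 0.0377), and Vdr, the vitamin D receptor, was 4.68 (adjusted p = 4.6e-07). Around Enpp2, 1 of 8 lysophosphatidic acid genes was higher (Plppr4, 2.18) and 2 were lower, the receptors Lpar6 (-0.72) and Lpar1 (-0.60).

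Around Prlr, 2 of 11 genes of prolactin signalling were higher and 3 lower. Stat5a, which carries the receptor's signal, was 1.30 (adjusted p = 0.000193), and Cish, an inhibitor of that signal, was -0.46 (adjusted p = 0.00245). Around Otx2, 3 of 21 roof plate genes were higher and 5 lower, Otx2 included. Wnt8b, a Wnt ligand of the medial cortex, was 2.57 (adjusted p = 1.79e-06), and Rspo1, which enhances Wnt signals, was -0.57 (adjusted p = 0.00113). Around Sostdc1, 2 of 14 BMP and Wnt partners were higher and 4 lower, among them Lrp6, the Wnt co-receptor (-0.37, adjusted p = 0.00264). Of 23 genes of ependyma and motile cilia, which line the ventricles beside the choroid plexus, 3 were higher and 3 lower. Of 13 genes of the eye and pigment epithelium 3 were higher and 2 lower, of 12 endothelial genes 1 and 3, of 15 oligodendrocyte genes 3 and 1, of 11 liver and gut genes 1 and 1, and of 10 pineal and pituitary genes 1 and 2. Of 12 erythroid genes 2 were higher and 6 lower in knockouts and 1 higher and 6 lower in controls, where Hba-a1, an alpha-globin, was -2.13 (adjusted p = 0.000839). The mean log2 level of these 12 genes ran from 6.81 to 6.92 in P1 knockouts and from 7.10 to 7.54 in E15 knockouts, and from 6.70 to 6.87 in P1 controls and from 7.11 to 7.52 in E15 controls. Their part in the age differences was not tested.

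Knockout was compared with control on each array, which asks whether the knockout label goes with a change in these genes. None of the 10 genes passed the threshold at P1 or E15 (limma, adjusted p from 0.538 to 0.979 at P1 and from 0.781 to 0.981 at E15), and 0 of the 10 had an unadjusted p under 0.05 at either age. The share of all features called was 0% at P1 (of 24597 features, 2294 with an unadjusted p under 0.05) and 0% at E15 (of 24135 features, 1483 with one). The directions were mixed, with 7 genes above and 3 below 0 at P1 and 3 above and 7 below 0 at E15. The difference of the knockout effect between the ages passed the threshold for 0 of the 10 genes and for 0.301% of all features. Kl had the lowest unadjusted p in that test, with a difference of 0.17 (SE 0.07, adjusted p = 0.788).

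**Figure D3:**
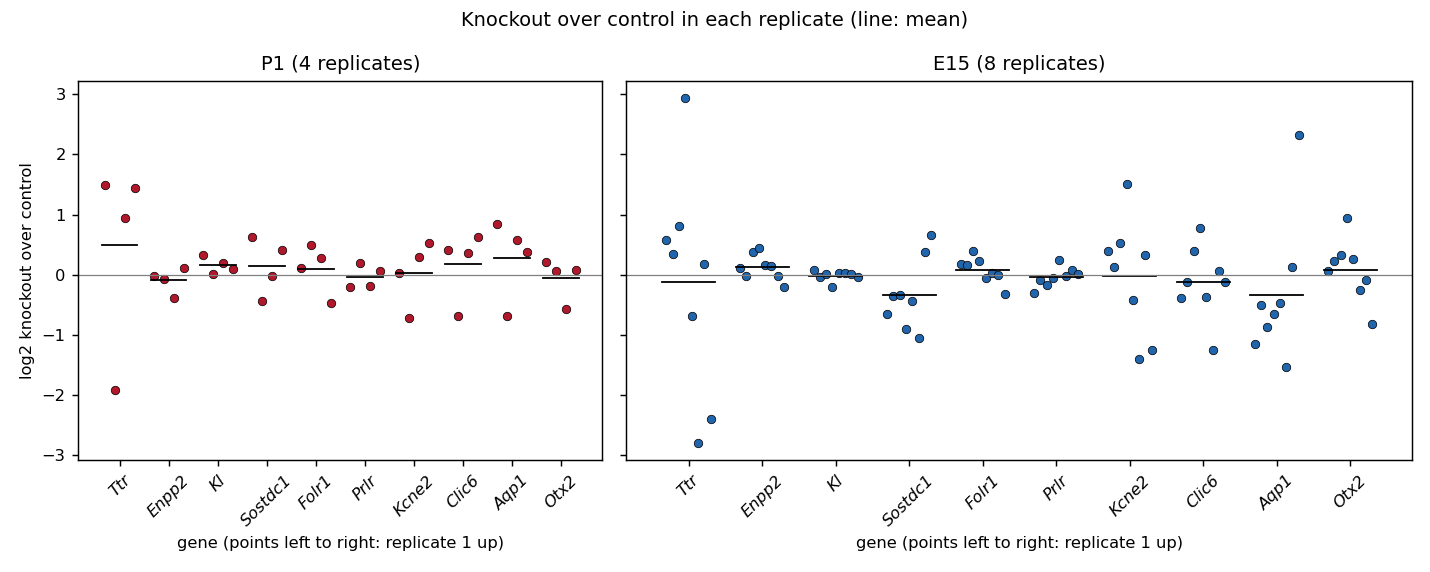
Log2 knockout over control of each gene in each replicate at P1 (4 replicates) and E15 (8), with points running from replicate 1 up and lines at the means. Ttr values reach from -1.92 to 1.50 at P1 and from -2.80 to 2.93 at E15, and Kl stays within -0.20 and 0.33.

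Ttr had the widest spread of knockout over control. Its log2 ratio was 1.50, -1.92, 0.95 and 1.44 in P1 replicates 1 to 4, and ran from -2.80 (replicate 6) through a median of 0.26 to 2.93 (replicate 4) at E15. At P1, 3 of 4 replicates lay above 0 and replicate 2 far below it. At E15, 5 of 8 lay above 0, and replicates 6 and 8 were the lowest, at -2.80 and -2.40. The means in the fit, which at E15 weighs replicates that share a control, were 0.49 (SE 0.63, adjusted p = 0.852) at P1 and -0.18 (SE 0.61, adjusted p = 0.958) at E15, with 95% intervals from -1.11 to 2.10 and from -1.57 to 1.20, so that a change of 2-fold in either direction lies within both. Without replicate 2 the P1 mean was 1.30. Over E15 replicates 1 to 4, scanned on 1 day, the mean was 1.17 (adjusted p = 0.276), and over replicates 5 to 8, scanned on other days, it was -1.43.

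The standard deviation of the Ttr ratio between replicates was 1.63 at P1 and 1.84 at E15. E15 replicates 5 to 8 had the same 2 animals in both dye orientations by their labels, and the 4 P1 replicates are taken to. The Ttr ratios of the 2 arrays of these 8 replicates were 0.70 apart at the median and 1.14 at most.

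Kcne2, Clic6 and Aqp1 also varied between replicates. Kcne2 ran from -0.72 (replicate 2) to 0.52 at P1 and from -1.40 (replicate 6) to 1.51 (replicate 4) at E15, with means of 0.03 (SE 0.21) and -0.05 (SE 0.32). The extremes fell in the same replicates as those of Ttr at E15. Clic6 ran from -0.69 to 0.63 at P1 and from -1.25 to 0.77 at E15, with means of 0.18 (SE 0.23) and -0.15 (SE 0.20). Aqp1 ran from -0.69 to 0.84 at P1 and from -1.53 to 2.33 (replicate 8) at E15, with means of 0.27 (SE 0.26) and -0.36 (SE 0.40). Without replicate 8 the E15 mean of Aqp1 was -0.73. Kl ran from 0.01 to 0.33 at P1, above 0 in 4 of 4 replicates, and from -0.20 to 0.08 at E15, with means of 0.16 (SE 0.06) and -0.01 (SE 0.04).

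The other members spread less than Ttr. At P1 and E15 their lowest and highest log2 ratios were -0.48 and 0.50, and -0.32 and 0.40, for Folr1. They were -0.39 and 0.12, and -0.20 and 0.44, for Enpp2. For Sostdc1 they were -0.43 and 0.63, and -1.04 and 0.66. For Prlr they were -0.20 and 0.20, and -0.30 and 0.24. For Otx2 they were -0.56 and 0.20, and -0.83 and 0.94. Each of these genes had replicates on both sides of 0 at both ages. The Folr1 value of 0.50, in P1 replicate 2, rests on its array with the knockout in Cy5, as the other spot was dropped as an outlier. With the knockout in Cy3 and in Cy5, Folr1 was -0.39 and 0.61 in P1 replicate 1 and -0.17 and 0.72 in replicate 3. In replicate 4 it was -0.33 and -0.62.

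The spread of Ttr between animals of a group was among the widest of all features. The highest P1 knockout was 14.1-fold above the lowest, the range was 8.77-fold in E15 knockouts, 1.69-fold in P1 controls and 5.96-fold in E15 controls. The standard deviation of its log2 intensity exceeded that of 99.97% of features in P1 knockouts, 99.8% in E15 knockouts, 94.3% in P1 controls and 99.5% in E15 controls. Aqp1 exceeded 99.2% and 99.4% of features in P1 and E15 knockouts, and Kcne2 98.2% and 98.8% in P1 and E15 controls. Kl exceeded 62.3%, 17.0%, 18.3% and 6.27% of features in P1 knockouts, E15 knockouts, P1 controls and E15 controls.

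Over the 22 animals Kcne2 moved with Ttr. After the mean of each age and genotype was removed, Pearson's r was 0.89 and Spearman's rho 0.88 (permutation within groups, 100000 orders, two-sided, adjusted p = 0.00019 for both over 19 relations; the raw p of 1e-05 is the smallest these permutations can give). Without the 2 animals farthest from the median of Ttr r was 0.85. It was 0.88 over the 8 animals at P1, all of 1 scan day, and 0.90 over the 14 at E15, where no scan day holds 6 animals of 1 group. In E15 knockouts r was 0.89 (n = 8, exact permutation p = 0.00365, adjusted over 38 relations 0.066) and in E15 controls it was 0.96 (n = 6, exact p = 0.00556, adjusted 0.066). Of 22123 other features that passed the filter on dim signals at both ages and had a value in every animal, Kcne2 ranked 1 in likeness to Ttr. On the ratio of knockout over control, which removes what the 2 channels of an array share, r was 0.96 over 12 replicates. The sign of Kcne2 matched that of Ttr in 12 of 12. These replicates are not independent, as E15 replicates 1, 4 and 7 are joined by shared controls, and so are 2, 3 and 8. E15 control 1, the lowest E15 control in both genes, was a control of replicates 1 and 4.

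Clic6 followed Ttr less closely, with r = 0.70 and rho = 0.75 (adjusted p = 0.00579 and 0.0018), ranking 5. Without the 2 farthest animals r was 0.72, and it was 0.93 at P1 and 0.59 at E15. In E15 knockouts r was 0.73 (n = 8, exact permutation p = 0.0385, adjusted 0.144), and in E15 controls it was 0.16 (n = 6, exact p = 0.75, adjusted 0.856). On the ratios r was 0.86, with matching signs in 10 of 12 replicates. Kcne2 and Clic6 are near each other on chromosome 16, with 5 other protein-coding genes between them in the RefSeq order of GRCm38.p6. Of these, Smim11, Kcne1 and Rcan1 were measured in all animals and had r with Ttr of -0.14, 0.15 and 0.09. The second Clic6 probe had r = 0.42 with Ttr.

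**Figure D4:**
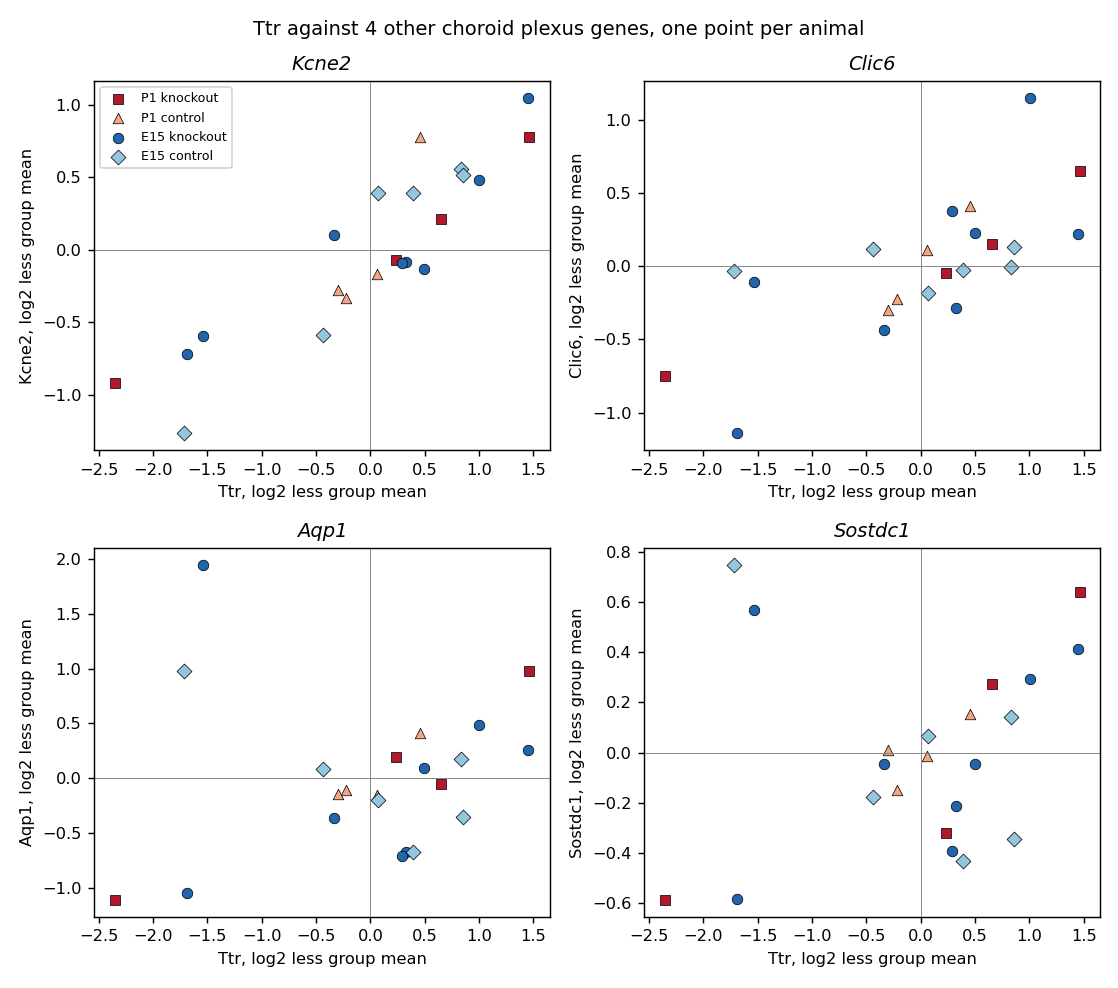
Log2 intensity of Ttr less its group mean (horizontal axes) against that of Kcne2, Clic6, Aqp1 and Sostdc1 less theirs (vertical axes), 1 point per animal, 22 animals of 4 groups. Kcne2 and Clic6 rise with Ttr, and 2 E15 animals with low Ttr lie high in Aqp1 and Sostdc1.

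The other 7 genes had lower correlations with Ttr. Enpp2 had r = 0.47 and rho = 0.63 (adjusted p = 0.192 and 0.026), Kl 0.39 and 0.30, Otx2 0.22 and 0.065, Sostdc1 0.22 and 0.29, Folr1 0.16 and 0.20, Aqp1 0.10 and 0.29, and Prlr -0.045 and -0.0028, with adjusted p of 0.416 or more for Kl and above that for the rest. The second Folr1 probe had r = 0.65, against 0.16 for the probe that stands for the gene. Aqp1 and Sostdc1 had r with Ttr of 0.94 and 0.87 over the 8 P1 animals, and of 0.55 and 0.53 without the 2 farthest of them. Over the 14 E15 animals r was -0.27 and -0.14, and these values also rested on few animals. Within E15 knockouts r was -0.084 and 0.26, and 0.70 and 0.74 without the 2 farthest in Ttr. Within E15 controls it was -0.78 and -0.74, and 0.33 and -0.10 without the 2 farthest. P1 knockouts 1 and 2, at the ends of the Ttr range, were also highest and lowest in Aqp1 and Sostdc1.

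Aqp1 and Sostdc1 moved with each other (r = 0.86 over 22 animals) and with the mean of the meninges and fibroblast list. For Aqp1 and that list r was 0.77 and rho 0.58 (adjusted p = 0.00355 and 0.026), and r was 0.14 over P1 and 0.88 over E15 animals. For Sostdc1 r was 0.66 and rho 0.57 (adjusted p = 0.00355 and 0.026), with 0.38 at P1 and 0.77 at E15. Without E15 knockout 8 and E15 control 1, the 2 animals farthest from the median of the list, r was 0.46 for each, so the size of both relations rested in part on these 2 animals. Aqp1 was highest of all animals in E15 knockout 8 (761) and second in E15 control 1 (483). Both animals were low in Ttr, at 130 and 139, and in Kcne2, at 120 and 82.2. The list had r = -0.41 with Ttr and -0.40 with Kcne2 (adjusted p = 0.192 and 0.226), and both were near 0 (0.056 and -0.0035) without the 2 farthest animals. Folr1 and Prlr had r = 0.72 with each other.

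**Figure D5:**
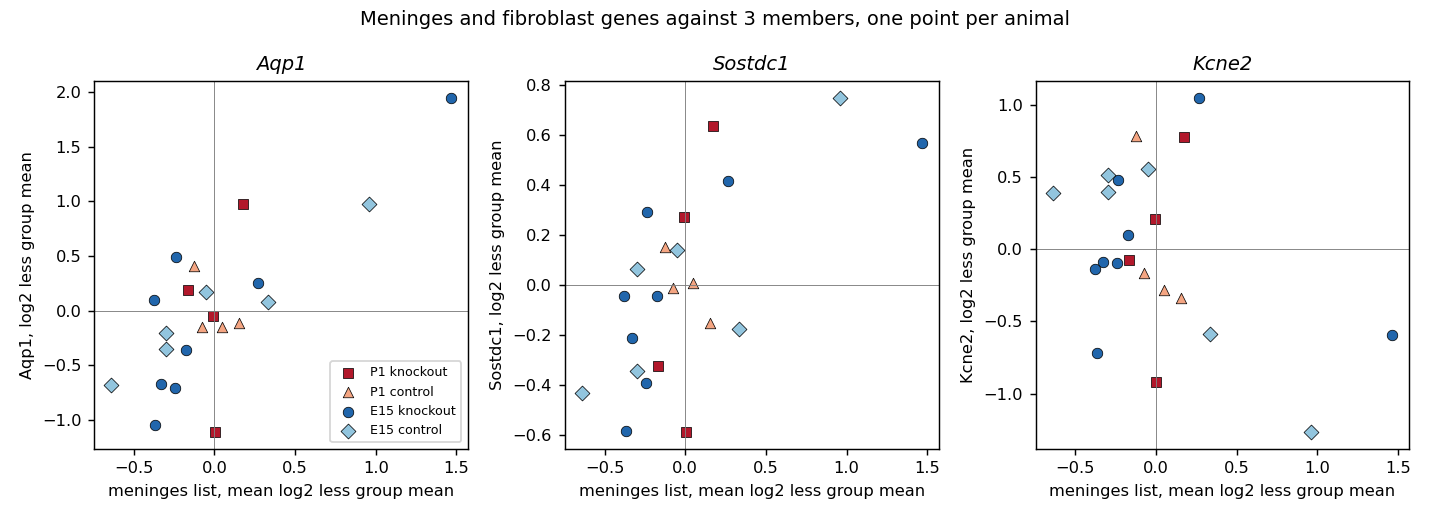
Mean log2 level of 20 meninges and fibroblast genes less its group mean (horizontal axes) against log2 intensity of Aqp1, Sostdc1 and Kcne2 less theirs (vertical axes), 1 point per animal, 22 animals. The 2 animals at the right, E15 knockout 8 and E15 control 1, are high in Aqp1 and Sostdc1 and low in Kcne2.

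The 10 genes outside the list with the highest r with Ttr over the 22 animals were Kdm1a (0.77), Rbm12 (0.73), Gm9387 (0.71), Nol4 (0.70), Mgat5 (0.68), Natd1 (0.66), Bdkrb2 (0.66), Cstf3 (0.65), Zmiz2 (0.65) and Nsfl1c (0.65). Of the 43 other choroid plexus genes that passed the filter on dim signals at both ages and had a value in every animal, 24 had r above 0 with Ttr. The median was 0.09. The highest was Car12, a membrane carbonic anhydrase (0.54), followed by Slco1c1 (0.51) and Htr2c, the serotonin receptor of the choroid plexus (0.48). These values describe the likeness over animals that share arrays and are given with no p.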

How the data were processed

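Whole-brain RNA was measured on 22 two-colour arrays. The deposited scanner files give, per the file headers, each spot's mean intensity, the median of its local background and a processed signal from the scanner software. Their log10 ratios are red over green processed signal, per the file headers. The deposited matrix held those ratios, within 0.005 and not turned for dye. No column was left unmapped.

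Mean signals were background-corrected by normexp (offset 50, which compresses fold changes of dim genes) and loess-normalized within arrays. Outlier spots were dropped, and the brightest probe stood for a gene. They numbered from 287 to 3343 on a P1 array and from 52 to 381 on an E15 array, so the dropping was unequal between the ages. Of the 10 genes only Folr1 lost a spot. For E15 knockouts 3 and 4, with 1 dye orientation, the mean dye effect was subtracted. It was not subtracted where a dropped outlier spot left 1 orientation, as for Folr1 in P1 replicate 2. Ages were compared on channels after Aquantile scaling, averaged per animal. Features well above background in at least 50% of the channels of an age were tested with limma 3.58.1 in R 4.3.3 (adjusted p, Benjamini-Hochberg, threshold 0.05). The E15 ratio fits took control-sharing sets as a random block (duplicateCorrelation, statmod 1.5.0). Replicate numbers follow the labels. Nothing says how animals relate by litter, and p-values measure the spread between these samples. On simulated data with 200 changed features, changes of 1 on the log2 scale were recovered in 80% for knockouts by age and 89% for controls by age. They were recovered in 87% for knockout over control at P1 and 94% at E15. Changes of 0.5 were recovered in 52%, 44%, 50% and 82%, in that order. Of the unchanged features, 5, 6, 11 and 22 were called, in that order. The noise was independent between samples and had each feature's own spread, and the changed features were picked at random. These rates therefore do not hold for genes as variable as Ttr.

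The members, lists and tests were chosen with earlier results of these data known. All members were named, with up to 4 genes of each other list by smallest adjusted p in the control age comparison, of which some are given, and the 10 genes most like Ttr. Alternatives covered normalization, filters, probes, blocks, scan days and each animal left out.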

Additional observations from a re-analysis of the deposited data

Results flagged for a closer look

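Within groups of 4 to 8, 60 sets of values of the 10 genes were checked for an animal or replicate far from the others, 40 of intensities and 20 of ratios, and 5 were found. Chance alone gives about 1 in 20. Aqp1 and Kcne2 each had P1 control 1 far above the other 3 P1 controls, at a log2 intensity of 7.61 (196 units) and 7.97 (251 units). The same animal was the highest P1 control in Ttr, at 342, in Clic6, at 235, and in Enpp2, Sostdc1 and Prlr. It was the lowest P1 control in Otx2, at 86.5, and at neither end in Folr1 and Kl. The Aqp1 log2 ratio of knockout over control was far above the others in E15 replicate 8, at 2.33. That knockout had the highest mean level of meninges and fibroblast genes of all animals, and the part of those genes in the ratio was not tested. The Kl log2 ratio was lowest in E15 replicate 4, at -0.20. The Ttr log2 ratio was far below the others in P1 replicate 2, at -1.92. In that replicate Kcne2, Clic6, Aqp1, Sostdc1 and Kl were also at their lowest P1 ratios. Folr1 (0.50) and Prlr (0.20) were at their highest there, and Otx2 (0.065) and Enpp2 (-0.066) were at neither end. No gene had all its P1 ratios on one side of 0 and all its E15 ratios on the other.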

How the results depend on the processing

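The number of the 10 genes called at P1 over E15 in controls was 3, where 33.3% of all features were called. It was 5 on the scanner's processed signals (37.5% of features), 5 where every channel had to be well above background (35.9%) and 6 with outlier spots kept (38.1%). It was 7 without the 2 E15 animals highest in meninges genes (34.6%), a choice made after seeing the data. In controls this choice drops E15 control 1 only, so it is the same fit as the one without that animal. With 1 knockout left out the number in knockouts ran from 1 to 3, and with 1 control left out that in controls ran from 2 to 7, the highest without E15 control 1. For knockout over control and its difference between ages it was 0 under all alternatives run. Over all features, the calls by age numbered 3587 in knockouts and 5445 in controls where every channel had to be well above background. With 1 animal left out they ran from 4282 to 6966 in knockouts and from 6387 to 8874 in controls. At E15, 1 feature was called on processed signals and 1 on the deposited log ratios, and 0 to 1 with 1 replicate left out. The difference between ages had 71 calls, 126 with no filter, 2 with every channel above background, 0 on processed signals, on deposited ratios and with outliers kept, 4 without the replicates of 1 dye orientation, 1 without the replicates holding the 2 animals above (fitted with no block, as no correlation could be estimated), and 9 to 130 with 1 replicate left out.

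Of 650 single-gene values under alternatives, 572 kept direction and side of the threshold, 27 newly passed it, 11 no longer did and 40 turned sign, none of these past the threshold in both. By age, the values without E15 control 1 and without E15 knockout 8 are counted again as those without the animals high in meninges genes. Folr1 turned to -0.056 in knockouts and -0.41 in controls by its other probe. In knockouts by age, Enpp2 turned to -0.0034 (quantile), -0.020 (75th percentile), -0.088 (outliers kept) and -0.0065 (without the animals high in meninges genes, where Aqp1 was 0.13 and Sostdc1 0.0091), and Ttr to 0.14 without animals of 1 dye orientation. With 1 animal left out Ttr ran from -0.60 to 0.67, Aqp1 from -0.47 to 0.23, Sostdc1 from -0.28 to 0.12, Kcne2 from -0.55 to 0.019 and Enpp2 from -0.067 to 0.13. For knockout over control at E15, replicates 1 to 4, of 1 scan day, gave 1.17 for Ttr, 0.64 for Kcne2 and 0.16 for Clic6, and replicates 5 to 8 gave 0.11 for Aqp1. Kcne2 was 0.035 with median centring. Kl was 0.014 without 1-orientation replicates, 0.025 within replicates 6 and 7, 0.0096 over replicates 5 to 8 and 0.0085 without the animals high in meninges genes. With 1 replicate left out, Kcne2 ran from -0.13 to 0.28 at P1, and at E15 Ttr ran from -0.60 to 0.25, Kcne2 from -0.26 to 0.17, Clic6 from -0.28 to 0.030 and Kl from -0.029 to 0.014. The cause was not tested. The numbers shared by P1 and E15 replicates did not pair them (correlations of same-numbered replicates from -0.12 to 0.15, with the best match under the same number for 2 of 4). A replicate block on these numbers left 75 features and 0 of the 10 genes called. Blocks by slide were not run, since each of the 22 arrays was on its own slide, and P1 has 1 scan day. The number of arrays and the signal over background limit what could be detected.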

Other observations

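The mean log2 level was taken over the 44 other choroid plexus genes that passed the filter on dim signals at either age and had a value in every animal. This level did not follow Ttr (r = -0.23 over 22 animals, group means removed). It was highest in E15 knockout 8, at 7.83, and E15 control 1, at 7.90, the 2 animals highest in meninges and fibroblast genes and among the lowest in Ttr. In knockout over control, 30 of the 49 other choroid plexus genes tested at P1 lay above 0, and 13 of the 49 tested at E15. The medians were 0.015 and -0.078, and 0 passed the threshold at either age. The 2 probes of Folr1 had r = 0.24 with each other over the animals, those of Clic6 0.41 and those of Kl -0.38.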
